A study of Mus musculus with 2 samples.

Results

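The growth factor genes described here are 10 mouse genes, out of 32285 in the count matrix, that code for receptors and ligands by which skin myeloid cells are maintained. They were taken by their symbols. The 7 receptor genes are Csf1r, Csf2ra, Csf2rb, Csf2rb2, Csf3r, Flt3 and Kit, and the 3 ligand genes are Csf1, Il34 and Kitl. They were followed in single-cell RNA-seq of dorsal skin from wild-type (WT) male mice aged 9 weeks, labelled young, or 108 weeks, labelled old. For each age, cells of 2 mice were pooled, sorted as F4/80-positive and high for MHC class II, and made into 1 droplet library. F4/80 is the macrophage surface protein encoded by Adgre1, and MHC class II presents antigen. The matrix separates its 2 libraries by barcode suffix only, and no label ties a suffix to an age. Values are therefore given for both ages together and for library 1 and library 2, named by their suffixes, whose ages are unknown.

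Of 5257 barcodes, 3797 cells passed a minimum of 500 genes and 1000 UMIs and a limit of 10% on mitochondrial UMIs, with 2396 in library 1 and 1401 in library 2. A UMI marks a distinct RNA molecule. The kept cells held 50800888 UMIs, with a median of 10870 per cell, and 1 barcode sequence occurred in both libraries. The cells formed 32 clusters. Marker genes placed 2036 cells among phagocytes, 827 among fibroblast-like, 235 among endothelial, 36 among mural-like and 70 among keratinocyte-like cells, while 7 clusters with 338 cells stayed unnamed. Among the unnamed clusters are vessel cells that carried haemoglobin RNA. Phagocytes comprised 421 resident macrophage-like, 695 macrophage-like, 365 monocyte-like and 528 type 2 conventional dendritic cell-like (cDC2-like) cells and 27 cells without a finer name. The monocyte-like cluster, led by Ly6c2, raised general macrophage markers more than monocyte markers. Its mean log2 excesses over the median cluster were 4.91 and 3.93, so the name does not separate it from macrophages. The libraries differed in their makeup, since library 1 held 1591 phagocytes and 320 fibroblast-like cells and library 2 held 445 and 507. Levels are UMIs of a gene per 1000000 UMIs of the cell class (CPM) with exact 95% Poisson intervals, which cover counting error only. With 1 library per age and the ages unassigned, no test between groups was possible.

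The cell type on the labels is macrophage, and the genes of the gate were higher in the phagocytes than in stromal and epithelial cells. The phagocytes include cDC2-like cells, with Adgre1 at 232 CPM and the macrophage gene C1qa at 38.0 CPM, against 582 and 3386 CPM in resident macrophage-like cells. Adgre1 stood at 377 CPM in phagocytes and at 4.26 CPM over the fibroblast-like, endothelial, mural-like and keratinocyte-like cells as 1 pool, referred to below as stromal and epithelial cells. H2-Ab1, an MHC class II chain, stood at 10064 and 148 CPM. Adgre1 and C1qa are among the macrophage markers by which phagocytes were named, so their excess there is partly built in. H2-Ab1 is not among the markers. Adgre1 did not separate every group, since mast-like cells, which are no phagocytes here, stood at 80.1 CPM and the 27 phagocytes without a finer name at 25.5 CPM, with 10 UMIs in each. Cells outside the gate's phenotype were thus present in the matrix, and they supply the ligand values given here. How they passed the sort was not tested.

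CSF1R is the receptor tyrosine kinase that macrophages and monocytes depend on for survival. It has 2 ligands, CSF1 and IL-34, of which IL-34 is known in skin as a keratinocyte product that sustains epidermal Langerhans cells. The GM-CSF receptor pairs a specific alpha chain, encoded by Csf2ra, with the common beta chain encoded by Csf2rb, which also serves IL-3 and IL-5. Mice carry a further beta chain gene, Csf2rb2, that is specific to IL-3. CSF3R binds G-CSF, FLT3 drives dendritic cell development, and KIT with its ligand, stem cell factor from Kitl, maintains mast cells and melanocytes.

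All 7 receptor genes were at least 2-fold higher in phagocytes than in stromal and epithelial cells, and all 3 ligand genes were at least 2-fold lower. Over all 14663 genes with at least 20 UMIs, 15.1% were at least 2-fold higher and 34.7% at least 2-fold lower in the same comparison, with a median log2 ratio of -0.40. The receptor log2 ratios, with exact counting intervals, were 6.02 for Csf3r (5.17 to 7.02), 5.97 for Flt3 (5.09 to 7.04), 5.01 for Csf2ra (4.81 to 5.22), 4.48 for Csf1r (4.34 to 4.63), 3.46 for Csf2rb (3.36 to 3.56), 1.85 for Kit (1.16 to 2.61) and 1.27 for Csf2rb2 (1.13 to 1.41). Those of Kit and Csf2rb2 dropped under 1, the log2 of a 2-fold difference, under several other settings, with lowest values of 0.30 and 0.22. These ratios are against the pool and do not hold for each class in it. Csf2rb2 stood at 67.2 CPM in phagocytes but at 157 CPM in endothelial cells, blood and lymphatic together. Kit stood at 3.84 CPM in phagocytes and 3.21 CPM in endothelial cells. The ligand log2 ratios were -6.48 for Csf1 (-6.72 to -6.24), -5.59 for Il34 (-7.23 to -4.34) and -2.54 for Kitl (-2.71 to -2.36). The counting intervals do not cover the choice of settings, and each of the 10 ratios moved by more than 1.5-fold under at least 1 of them. With each cell named on its own the ratio of Csf1 was -1.87, and with at most 5% mitochondrial UMIs that of Flt3 was 2.31. Phagocytes held 11233 of the 11824 Csf1r UMIs, 95.3% of the Csf2ra UMIs, 96.3% of the Csf3r UMIs and 97.6% of the Flt3 UMIs. Their parts of the other receptors were smaller, at 86.0% for Csf2rb, 62.4% for Csf2rb2 and 31.8% for Kit. Fibroblast-like cells held 91.5% of the Csf1 UMIs. Cells outside the phagocyte, stromal and epithelial classes held 61.4% of the Kit, 40.1% of the Il34 and 46.1% of the Kitl UMIs.

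**Figure D1:**
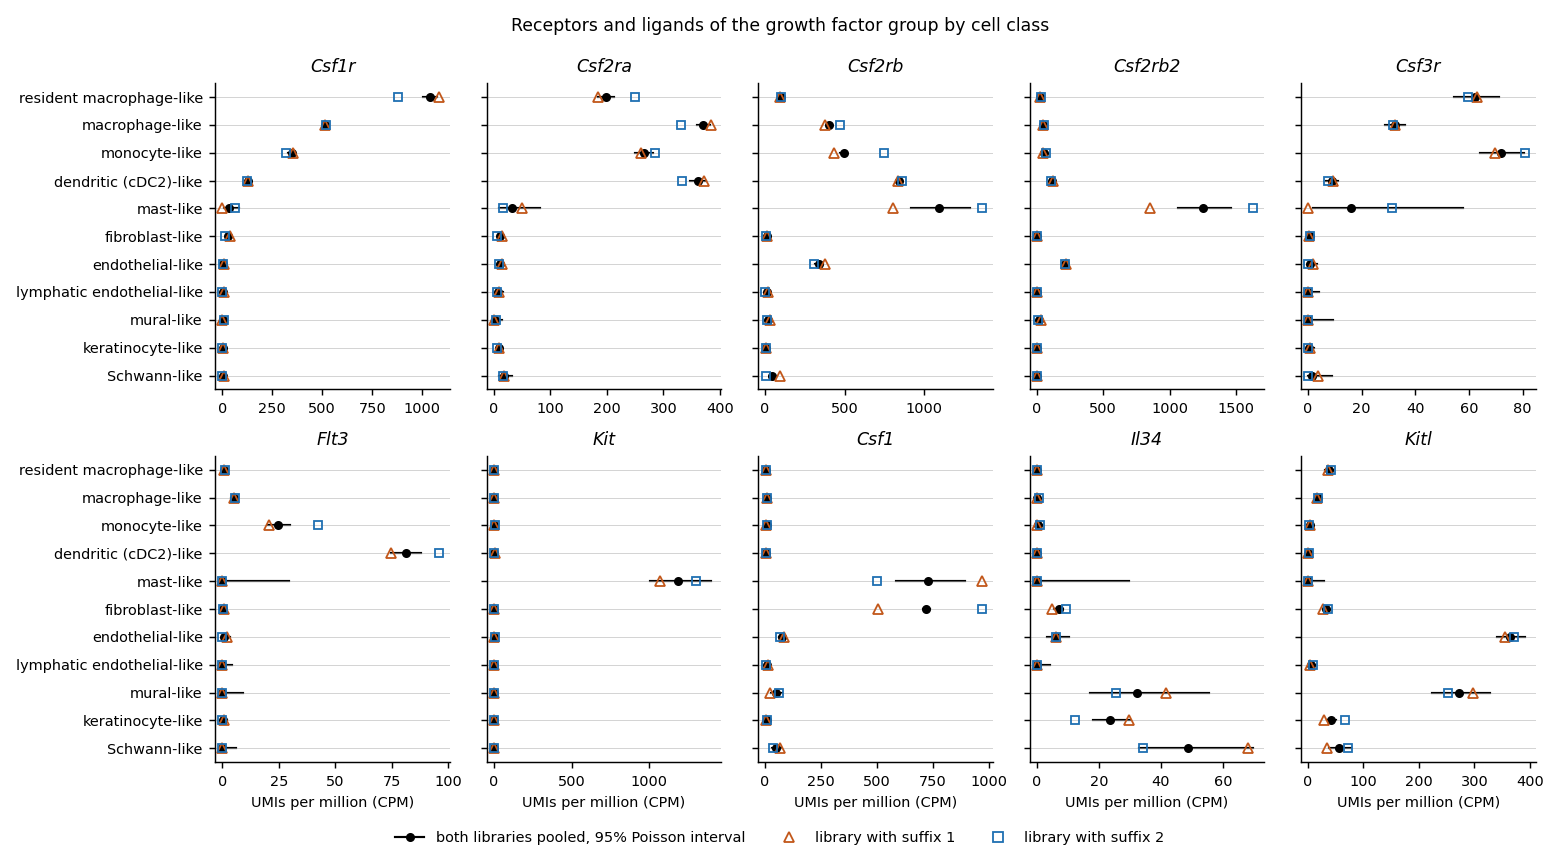
Level of each member in 11 cell classes, in CPM on a linear axis that differs between panels. Black points and bars are both libraries pooled with 95% Poisson intervals, triangles library 1 and squares library 2. Csf1r is highest in resident macrophage-like cells at 1038 CPM, Csf1 in mast-like and fibroblast-like cells at 729 and 721 CPM, and Kitl in endothelial-like cells at 365 CPM.

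Csf1r (ENSMUSG00000024621, chr18:61100598-61132149 of GRCm38, plus strand) followed the macrophage character of the phagocytes. Its level was 1038 CPM (1005 to 1072) in resident macrophage-like, 515 CPM (501 to 530) in macrophage-like, 346 CPM (329 to 364) in monocyte-like and 127 CPM (119 to 135) in cDC2-like cells. The order was the same in both libraries, with 1084, 515, 353 and 129 CPM in library 1 and 876, 517, 318 and 122 CPM in library 2. No pair of neighbours in this order overlapped in its intervals or in its library values. In cells thinned to 2000 UMIs, a Csf1r UMI was present in 87.2% of resident macrophage-like, 64.4% of macrophage-like, 52.3% of monocyte-like and 23.2% of cDC2-like cells. Without thinning the shares were 96.4%, 94.0%, 82.2% and 68.2%, at median depths of 8743, 11299, 10718 and 14179 UMIs. Keratinocyte-like cells, which should lack the gene, had it in 0 of 68 thinned cells, which allows a share of up to 4.41% at this depth, taken at 3 counts. Unthinned, the share there was 5.71% at a median depth of 21401 UMIs.

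Within these classes the level varied between clusters. Among the macrophage-like clusters, the cluster led by Ccl3, Ccl4 and Pf4 reached 911 CPM (957 and 806 CPM in libraries 1 and 2), near the resident macrophage-like level. The Ccl8 and Ly6c2 cluster stood at 491 CPM and the Retnla and Lyz1 cluster at 356 CPM. Of the cDC2-like clusters, the Ccr7 cluster was lowest at 73.2 CPM. The 27 unnamed phagocytes had 9 Csf1r UMIs, or 22.9 CPM. They scored highest for the markers of type 1 conventional dendritic cells (mean log2 excess 3.37) and next for those of Langerhans cells (2.73), with the lectin gene Cd207 at 303 CPM, and they stayed unnamed because none of these markers was among their 10 leading genes. Over the 32 clusters, the genes whose log2 levels were most like those of Csf1r were the chemokine genes Ccl9 (Pearson's r 0.95) and Ccl6 (0.95) and the integrin gene Itgam (0.95), as a description over clusters that share libraries.

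**Figure D2:**
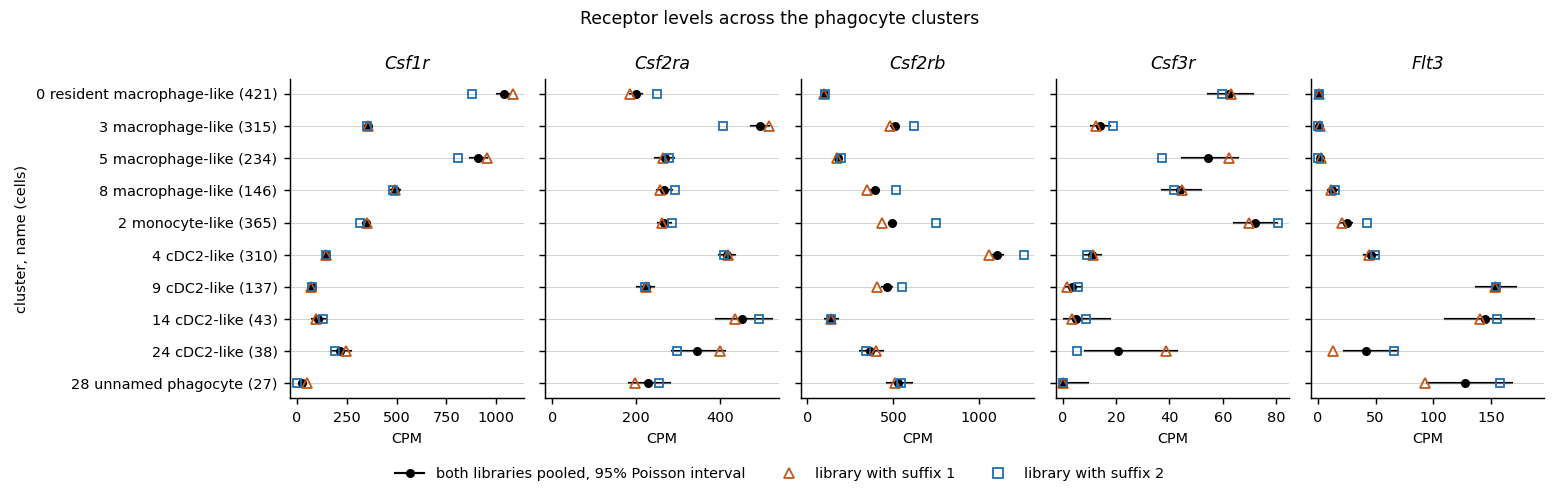
Levels of 5 receptor genes in the 10 phagocyte clusters in CPM, with cell numbers in parentheses. Points, bars, triangles and squares are as for the plot by cell class. Csf1r peaks in clusters 0 and 5, Csf2rb in cluster 4 and Flt3 in clusters 9, 14 and 28, and the libraries share these peaks.

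Csf1r UMIs also occurred in fibroblast-like cells, at 27.1 CPM (24.4 to 29.98). Library 1 gave 37.0 CPM and library 2 gave 15.7 CPM. The level differed between the 4 fibroblast-like clusters. It was 74.3 CPM in the cluster led by Col1a1, Lum, Meg3 and Mmp3 and 31.9 CPM in the cluster with Igfbp2 and Mmp2, but 4.88 CPM in the Has1, Ptx3 and Myoc cluster and 2.91 CPM in the Igfbp3, Prlr and Crabp1 cluster. The Col1a1-led cluster had 150 of its 155 cells in library 1, and the Igfbp2 cluster had 175 of 186 in library 2, so that cluster and library cannot be told apart for these levels. Without the Col1a1-led cluster, the log2 ratio of Csf1r between phagocytes and stromal and epithelial cells was 5.65 in place of 4.48. Macrophage genes were also present in these clusters. C1qa, the complement gene typical of macrophages, stood at 3.34 CPM in the Col1a1-led and 26.1 CPM in the Igfbp2 cluster, and Lyz2 at 80.4 and 243 CPM. All 12 general macrophage markers had UMIs in each fibroblast-like cluster, with summed levels of 115 to 388 CPM, against 15496 CPM in phagocytes. The Col1a1-led cluster had a sum of 173 CPM. The part of macrophage RNA in these Csf1r levels was not tested.

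The cells without any UMI of C1qa, C1qb, C1qc, Adgre1, Fcgr1 and Ptprc were then taken, a choice made after these values were seen. In the Col1a1-led cluster 107 cells remained, with 75.6 CPM of Csf1r (64.3 to 88.4), and 59 of them, or 55.1%, had a Csf1r UMI. In the Igfbp2 cluster 161 cells remained, with 31.0 CPM and 26.1% of cells with a UMI. In the Has1 and Prlr clusters the levels were 1.81 and 3.49 CPM. After thinning of all cells to 2000 UMIs, the shares with a Csf1r UMI were 10.6% in the Col1a1-led, 2.23% in the Igfbp2 and 1.16% in the Has1 cluster and 0 of 109 cells in the Prlr cluster. Csf1r starts 15536 bases after the end of Pdgfrb on the same strand. Pdgfrb, a platelet-derived growth factor receptor gene of fibroblasts and mural cells, stood at 114 CPM in the Col1a1-led, 117 CPM in the Igfbp2 and 117 CPM in the Prlr cluster, and at 202 CPM in mural-like cells, which held 2 Csf1r UMIs. Whether reads that run on from Pdgfrb took part was not tested.

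**Figure D3:**
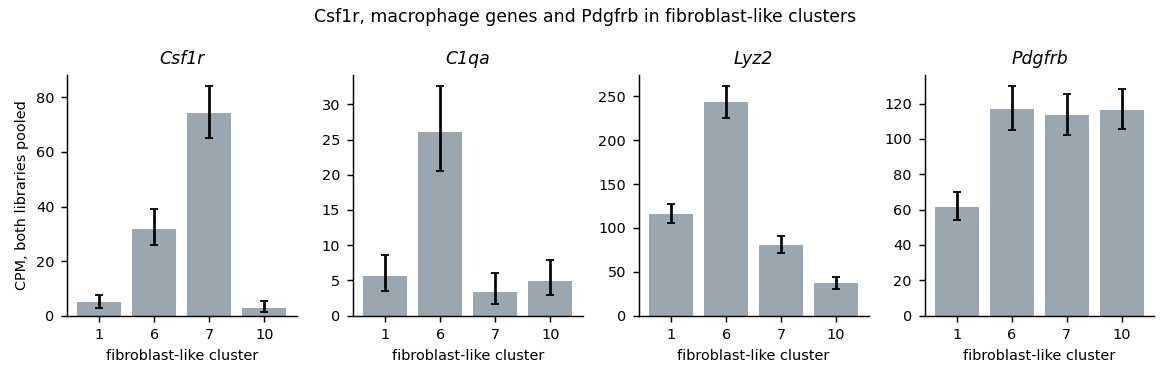
Levels of Csf1r, the macrophage genes C1qa and Lyz2, and Pdgfrb in the 4 fibroblast-like clusters, as CPM of both libraries pooled with 95% Poisson intervals. Clusters 1, 6, 7 and 10 are those with Has1, Igfbp2, Col1a1 and Prlr among their leading genes, in the order of the bars. Csf1r is highest in cluster 7 at 74.3 CPM, C1qa and Lyz2 in cluster 6, and Pdgfrb is near 117 CPM in clusters 6 and 10.

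Of the 14 adaptors, effectors and regulators of CSF1R signalling that were listed, 11 were at least 2-fold higher in phagocytes, none was 2-fold lower, and the median log2 ratio was 3.99, against 15.1% higher, 34.7% lower and a median of -0.40 over all genes tested. The transcription factor gene Spi1, which encodes PU.1, had a log2 ratio of 6.46 and the adaptor Tyrobp one of 6.22. Dab2, an endocytic adaptor, peaked in resident macrophage-like cells at 1396 CPM. Trem2, a receptor that signals through Tyrobp, peaked in monocyte-like cells at 131 CPM. Cebpa, Runx1 and Maf were within 2-fold, with log2 ratios of 1.00, 0.56 and 0.73, and Runx1 reached 371 CPM in mural-like cells.

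Csf1 (ENSMUSG00000014599, chr3:107741048-107760469, minus strand) was a fibroblast gene in this skin. Fibroblast-like cells stood at 721 CPM (707 to 735) with 9774 of the 10685 Csf1 UMIs. The 29 mast-like cells reached a like level of 729 CPM (587 to 895) from 91 UMIs in 16 cells, and the intervals overlapped. The next classes were endothelial-like cells at 73.6 CPM, Schwann-like cells at 48.8 CPM and mural-like cells at 47.3 CPM, which did not separate from each other in their intervals. Phagocytes stood at 5.68 CPM and keratinocyte-like cells at 7.09 CPM. A Csf1 UMI was found in 50.7% of thinned fibroblast-like cells (78.8% unthinned), against 0 of 68 thinned keratinocyte-like cells and 1.27% of thinned phagocytes. Unthinned, the shares were 18.6% of keratinocyte-like cells and 5.65% of phagocytes.

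The fibroblast-like clusters did not share this level. The Igfbp2 cluster stood at 1195 CPM, the Has1 cluster at 863 CPM and the Col1a1-led cluster at 819 CPM, while the Prlr and Crabp1 cluster stood at 57.4 CPM. Pooled fibroblast-like cells differed between libraries, with 504 CPM in library 1 and 969 CPM in library 2. Within the Has1 cluster the library values were 909 and 850 CPM. Of the 111 cells of the Prlr cluster, 80 came from library 1. The Csf1 levels across clusters were most like those of P4ha2 (r 0.90), Creb3l1 (0.85) and Loxl2 (0.83), which encode a collagen prolyl hydroxylase chain, a transcription factor of the secretory pathway and a collagen crosslinking enzyme.

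Il34 (ENSMUSG00000031750, chr8:110741829-110805924, minus strand) was sparse, with 319 UMIs in all cells. Schwann-like cells stood at 48.8 CPM (30 UMIs), mural-like cells at 32.4 CPM (13 UMIs) and keratinocyte-like cells at 23.5 CPM (63 UMIs). The intervals of these neighbours overlapped. Fibroblast-like and endothelial-like cells followed at 7.08 and 6.25 CPM and overlapped as well. Phagocytes held 5 Il34 UMIs in 2036 cells, with 0 in resident macrophage-like cells, which allows up to 0.835 CPM, taken at 3 counts. An unnamed cluster of 51 vessel cells, which carried haemoglobin RNA and the pericyte gene Rgs5 at 7452 CPM, had the highest level of any cluster at 90.5 CPM (78.4 and 131 CPM in libraries 1 and 2). A single unmixed pericyte cluster was not obtained, since the mural-like cells were 1 cluster of the smooth muscle kind with Acta2, Tagln and Myh11.

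The balance of the 2 CSF1R ligands therefore differed between classes. Each UMI counts 1 molecule from its 3' end, so that counts of different genes were added without scaling to length. Il34 made up 76.8% of the Csf1 and Il34 UMIs in keratinocyte-like cells (66.2 to 85.4, exact binomial interval), 30 of 60 UMIs in Schwann-like cells (36.8 to 63.2%), 40.6% in mural-like cells (23.7 to 59.4), 7.82% in endothelial-like cells and 0.973% in fibroblast-like cells (0.789 to 1.19). With both libraries pooled, the interval of keratinocyte-like cells lay above those of the other 4 classes, but not above those of every cluster. Of the Schwann-like clusters, the one with Mbp and Mal had 75% (50.9 to 91.3) and the one with Apod and Ptn 37.5% (22.7 to 54.2). The unnamed vessel cluster with Rgs5 had 61.9% (48.8 to 73.9). Library values rest on few UMIs. Keratinocyte-like cells held 51 Il34 and 10 Csf1 UMIs in library 1 and 12 and 9 in library 2. Mural-like cells held 7 and 4 in library 1 and 6 and 15 in library 2. The Il34 UMIs of keratinocyte-like cells lay in 17 of the 70 cells. Of the further IL-34 receptors, Sdc1 was highest in keratinocyte-like cells at 332 CPM and Ptprz1 in Schwann-like cells at 47.2 CPM. Both were at least 2-fold lower in phagocytes than in stromal and epithelial cells, as were 34.7% of all genes tested. The log2 ratio of Sdc1 was -1.94, and phagocytes held 0 Ptprz1 UMIs.

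**Figure D4:**
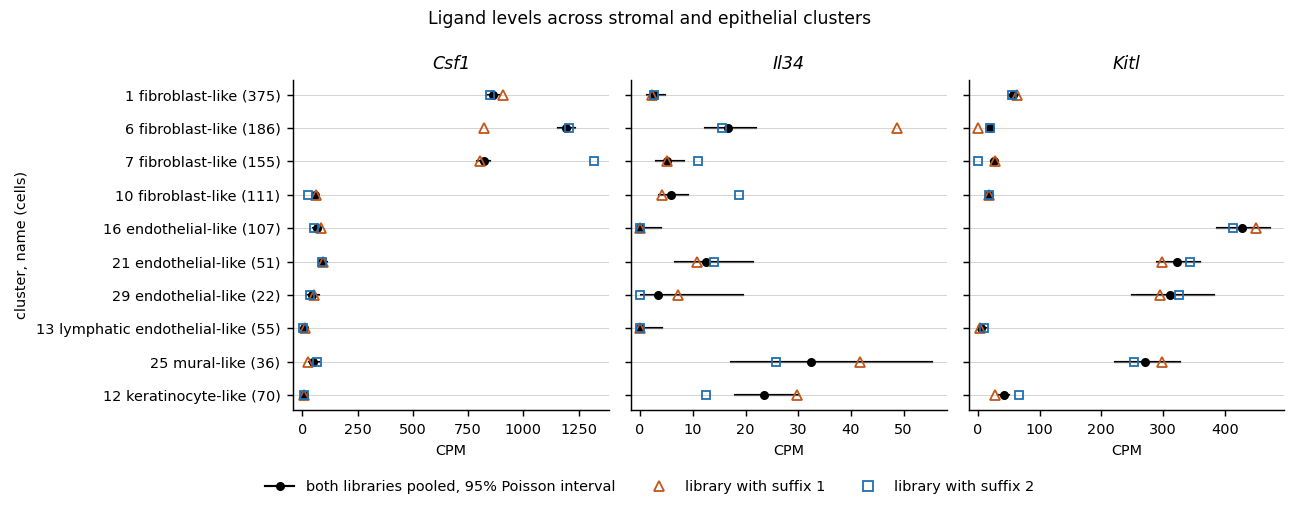
Levels of the 3 ligand genes in 10 stromal and epithelial clusters in CPM, with cell numbers in parentheses and marks as for the plot by cell class. Csf1 is high in fibroblast-like clusters 1, 6 and 7 and at 57.4 CPM in cluster 10, and Kitl is between 272 and 429 CPM in the blood endothelial-like and mural-like clusters. Library values of clusters 6 and 7 rest on 11 and 5 cells in the smaller library.

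Csf2ra (ENSMUSG00000059326, chr19:61223957-61228429, minus strand) was carried by every phagocyte class. Macrophage-like cells stood at 371 CPM and cDC2-like cells at 361 CPM, and their intervals overlapped. Monocyte-like cells followed at 265 CPM and resident macrophage-like cells at 198 CPM. Mast-like cells stood at 32.1 CPM from 4 UMIs and fibroblast-like cells at 10.5 CPM. The order of Csf2ra was thus unlike that of Csf1r, which was highest in the resident macrophage-like cells. The genes most like Csf2ra over the clusters were Nfam1, Alox5ap and H2-Ab1, each with r 0.96.

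Csf2rb (ENSMUSG00000071713, chr15:78325752-78353847, plus strand) had a wider range. Mast-like cells stood at 1090 CPM, cDC2-like cells at 841 CPM, monocyte-like cells at 493 CPM, macrophage-like cells at 402 CPM and blood endothelial-like cells at 336 CPM. Resident macrophage-like cells were the lowest of the named phagocytes at 97.5 CPM (96.0 and 103 CPM in libraries 1 and 2). No neighbours in this order overlapped in their intervals, but the library values of mast-like and cDC2-like cells overlapped, as did those of monocyte-like and macrophage-like cells. The cDC2-like cluster with Il1b, Mgl2 and Cd209a reached 1107 CPM, and the small Mgl2 cluster of 43 cells stood at 137 CPM. In monocyte-like cells the libraries differed, with 432 and 746 CPM. Lymphatic endothelial-like cells held 9 Csf2rb UMIs, or 10.3 CPM, so the endothelial level belonged to the blood endothelial-like cells. A thinned Csf2rb UMI was found in 42.8% of these cells (74.4% unthinned) and in 1.47% of keratinocyte-like cells (15.7% unthinned).

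Csf2rb2 (ENSMUSG00000071714, chr15:78282507-78305721, minus strand) lies 20030 bases from Csf2rb. The longest coding transcripts of the pair were 91.5% identical over their aligned bases, and the last 300 bases, near which 3' libraries read, were 81.5% identical. Whether reads were dropped or given to the wrong gene of the pair was not tested. The levels of both genes are uncertain to that extent. Mast-like cells stood at 1250 CPM of Csf2rb2, blood endothelial-like cells at 217 CPM, cDC2-like cells at 119 CPM, monocyte-like cells at 53.9 CPM, macrophage-like cells at 49.8 CPM and resident macrophage-like cells at 28.1 CPM. The intervals of monocyte-like and macrophage-like cells overlapped.

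The share of Csf2rb2 in the UMIs of both beta chain genes differed between some classes and not between others. It was 53.4% in mast-like (47.5 to 59.3), 39.2% in blood endothelial-like (36.5 to 42.0), 22.4% in resident macrophage-like (18.6 to 26.5), 12.4% in cDC2-like (11.7 to 13.2), 11.02% in macrophage-like (10.1 to 11.98) and 9.84% in monocyte-like cells (8.68 to 11.1). The first 3 of these classes did not overlap with each other or with the others just listed. The intervals of cDC2-like and macrophage-like cells overlapped, as did those of macrophage-like and monocyte-like cells. In library 1 the first 3 shares were 51.5%, 36.8% and 22.3%, and in library 2 they were 54.5%, 41.3% and 22.9%. Fibroblast-like cells stood at 30.8% (24.0 to 38.3) from 172 UMIs. Their interval overlapped those of both blood endothelial-like and resident macrophage-like cells. The blood endothelial-like clusters ranged from 30.8% in the Fabp4 and Gpihbp1 cluster to 44.5% in the Selp and Sele cluster. The latter carries the adhesion genes of venules. In the Fabp4 and Gpihbp1 cluster the libraries gave 24.5% and 37.1%. The unnamed vessel clusters with haemoglobin RNA stood at 16.8% (12.7 to 21.6), 37.4% (33.4 to 41.6) and 16.1% (5.45 to 33.7, from 31 UMIs). The first and last of these overlapped the interval of resident macrophage-like cells.

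**Figure D5:**
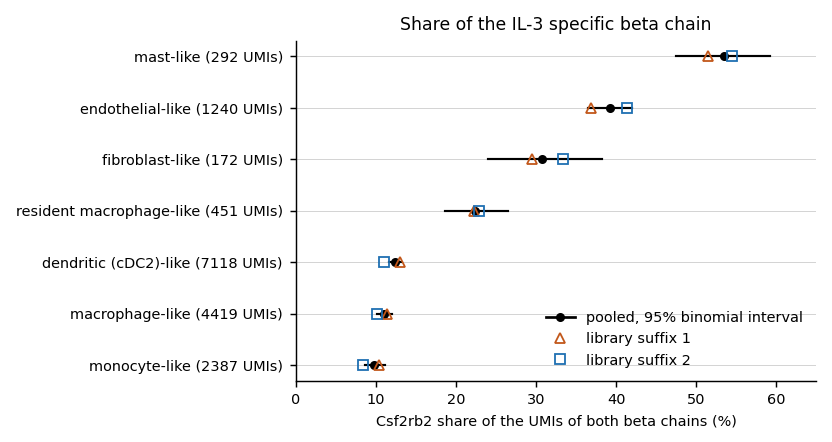
Share of Csf2rb2 in the UMIs of Csf2rb and Csf2rb2 in the named classes with at least 100 such UMIs, in percent. Points and bars are both libraries pooled with exact 95% binomial intervals, triangles library 1 and squares library 2. The share falls from 53.4% in mast-like to 9.84% in monocyte-like cells.

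Of 12 listed genes of the beta chain family and its signalling, 9 could be compared, with 1 at least 2-fold higher and 4 at least 2-fold lower in phagocytes and a median log2 ratio of -0.53. This was near the 15.1% higher, 34.7% lower and median of -0.40 over all genes tested. The higher gene was the IL-3 receptor alpha chain gene Il3ra, with a log2 ratio of 1.03. The lower genes were Csf2, Stat5b, Socs2 and Bhlhe40. As for the ligands, Csf2, the GM-CSF gene, was highest in mast-like cells at 200 CPM (25 UMIs) and Il5 had 4 UMIs in T or natural killer-like cells. No Il3 UMI was found in any named class.

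Csf3r (ENSMUSG00000028859, chr4:126024550-126044440, plus strand) marked monocyte-like and resident macrophage-like cells, at 72.0 CPM (64.2 to 80.4) and 62.4 CPM (54.5 to 71.1). These intervals overlapped. Macrophage-like cells stood at 32.3 CPM and cDC2-like cells at 8.90 CPM, with 32.5 and 9.50 CPM in library 1 and 31.7 and 7.54 CPM in library 2. The stromal and epithelial cells held 11 UMIs in all, or 0.557 CPM. A thinned UMI was found in 13.9% of monocyte-like and 10.8% of resident macrophage-like cells, and in 1.47% of keratinocyte-like cells. Msr1, Hk3 and Slc37a2 had the most similar pattern (r 0.96, 0.96 and 0.95). The ligand gene Csf3 was an endothelial gene, at 855 CPM in lymphatic and 741 CPM in blood endothelial-like cells. The Selp and Sele cluster reached 1437 CPM. Of the 4 listed genes of this axis, Csf3 and Socs3 were at least 2-fold lower in phagocytes (log2 ratios -2.84 and -1.99), Stat3 was within 2-fold (0.14), and Cebpe was at least 2-fold higher, with 40 UMIs in phagocytes and 0 in stromal and epithelial cells. The median over the 3 genes with UMIs on both sides was -1.99. Over all genes tested, 15.1% were higher and 34.7% lower, with a median of -0.40.

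Promoter windows of 4 receptor genes that were at least 2-fold higher in phagocytes than in the pooled stromal and epithelial cells are shown next. Of these, 3 hold a motif and, for contrast, that of Flt3 does not. RefSeq (GRCm38.p6) windows of 300 bases, from 250 bases before to 50 after the start, were found for 7 of the 10 genes. They were searched on both strands for GAGGAA, a core that PU.1 and related ETS factors can bind. In 28.3% of all 32851 such windows the letters occurred, and in 4 of the 7 genes, namely Csf2ra, Csf2rb2, Csf3r and Kit. The windows of Csf1, Flt3 and Kitl did not hold them, and that of Kit is not shown. Capitals mark GAGGAA or its reverse complement TTCCTC in the windows chr19:61228369-61228668 (minus strand), chr4:126024409-126024708 (plus strand), chr15:78305672-78305971 (minus strand) and chr5:147400440-147400739 (minus strand), printed 5' to 3' on the gene's strand.
Csf2ra: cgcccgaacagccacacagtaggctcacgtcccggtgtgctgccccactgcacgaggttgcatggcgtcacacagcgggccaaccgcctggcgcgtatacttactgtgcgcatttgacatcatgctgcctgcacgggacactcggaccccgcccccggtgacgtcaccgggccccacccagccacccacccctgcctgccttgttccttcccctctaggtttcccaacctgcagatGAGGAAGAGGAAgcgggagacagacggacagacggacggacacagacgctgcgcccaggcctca
Csf3r: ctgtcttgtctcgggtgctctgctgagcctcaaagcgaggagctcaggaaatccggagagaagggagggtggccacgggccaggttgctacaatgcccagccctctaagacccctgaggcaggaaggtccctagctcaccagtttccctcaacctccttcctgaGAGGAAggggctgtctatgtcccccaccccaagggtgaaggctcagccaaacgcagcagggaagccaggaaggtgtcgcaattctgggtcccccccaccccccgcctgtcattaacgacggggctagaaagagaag
Csf2rb2: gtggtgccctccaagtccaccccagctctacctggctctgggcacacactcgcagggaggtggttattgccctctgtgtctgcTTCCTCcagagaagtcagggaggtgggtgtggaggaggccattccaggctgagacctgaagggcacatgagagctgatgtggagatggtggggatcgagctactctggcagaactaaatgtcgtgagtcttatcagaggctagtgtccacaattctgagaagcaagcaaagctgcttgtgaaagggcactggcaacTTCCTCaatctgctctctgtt
Flt3: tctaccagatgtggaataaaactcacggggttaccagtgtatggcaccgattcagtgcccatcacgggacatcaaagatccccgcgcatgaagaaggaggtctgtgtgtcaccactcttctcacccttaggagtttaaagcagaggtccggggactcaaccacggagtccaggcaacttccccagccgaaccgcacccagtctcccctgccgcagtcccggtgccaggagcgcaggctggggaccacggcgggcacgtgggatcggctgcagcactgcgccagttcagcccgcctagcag

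The Csf2ra window held 2 adjoining copies on the gene's strand, the Csf3r window 1 copy and the Csf2rb2 window 2 copies on the opposite strand. The Flt3 window held no copy. On either strand, TATAAA was in 13.6% of all windows and, among the 7 genes, in that of Kitl alone. There it lay on the gene's strand. A match of letters describes these windows and not the binding of a factor.

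Flt3 (ENSMUSG00000042817, chr5:147330741-147400489, minus strand) was the receptor of the dendritic cells. The cDC2-like cells stood at 81.1 CPM (74.7 to 87.8), monocyte-like cells at 24.8 CPM, macrophage-like cells at 5.11 CPM and resident macrophage-like cells at 0.835 CPM (3 UMIs). The order from high to low was the same in both libraries, with 74.6 and 95.9 CPM in cDC2-like cells. Among the cDC2-like clusters, the Ccr7 cluster reached 154 CPM (153 and 154 CPM in libraries 1 and 2) and the small Mgl2 cluster 145 CPM, against 45.8 CPM in the Il1b cluster. The 27 unnamed phagocytes stood at 127 CPM. Stromal and epithelial cells held 10 UMIs, or 0.506 CPM. A thinned UMI was found in 13.6% of cDC2-like cells (50.4% unthinned) and in 0 of 68 keratinocyte-like cells. The most similar patterns were those of H2-Oa (r 0.94), H2-Ob (0.91) and Napsa (0.90), of which the former pair encodes MHC class II accessory chains.

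Of the 8 listed genes around FLT3, 6 were at least 2-fold higher and 2 at least 2-fold lower in phagocytes, with a median log2 ratio of 1.71, beside 15.1% higher and 34.7% lower over all genes tested. The higher ones were the transcription factor genes Irf4 (log2 ratio 4.40), Batf3 (3.65), Id2 (2.47), Zbtb46, Zfp366 and Irf8. Of these, only Zbtb46 and Zfp366 were highest in cDC2-like cells, at 57.1 and 29.5 CPM. Irf4 and Irf8 were highest in resident macrophage-like cells, at 156 and 323 CPM. Batf3 and Id2 were highest in macrophage-like cells, at 44.3 and 1034 CPM. The ligand gene Flt3l was low throughout, at 17.1 CPM in fibroblast-like cells and 30.6 CPM, from 8 UMIs, in T or natural killer-like cells.

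Kit (ENSMUSG00000005672, chr5:75574916-75656722, plus strand) was confined to few cells. The 29 mast-like cells held 148 Kit UMIs, or 1186 CPM (1003 to 1393), with 1067 CPM in library 1 and 1299 CPM in library 2. Among the named classes, T or natural killer-like cells followed at 19.1 CPM from 5 UMIs, all in library 1. Phagocytes held 98 UMIs, or 3.84 CPM, of which 37 came from the 27 unnamed phagocytes with Cd207. That cluster stood at 94.3 CPM (66.4 to 130), with 98.1 and 91.0 CPM in libraries 1 and 2, and 14 of its cells had a Kit UMI. Resident macrophage-like cells held 0 Kit UMIs in 421 cells. The most similar patterns were those of Ap1s3 (r 0.86), Cyp11a1 (0.84) and the histidine decarboxylase gene Hdc (0.84). Hdc is among the markers by which the mast-like cells were named. Of 6 listed genes of the KIT axis, 4 could be compared. Lyn was at least 2-fold higher and Gata2 at least 2-fold lower in phagocytes, with a median log2 ratio of 0.20. Over all genes tested, 15.1% were higher and 34.7% lower, with a median of -0.40. The 4 genes do not set this axis apart from those shares. Gata2, a transcription factor of mast cells, reached 673 CPM in mast-like cells.

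Kitl (ENSMUSG00000019966, chr10:100015630-100100416, plus strand) was a gene of blood vessels. Blood endothelial-like cells stood at 365 CPM (340 to 391), with 356 and 372 CPM in libraries 1 and 2, and mural-like cells at 272 CPM (223 to 328). Their intervals did not overlap. Mural-like cells also carried Cdh5 at 152 CPM, against 791 CPM in blood endothelial-like cells, and the part of endothelial RNA in their Kitl level was not tested. Lymphatic endothelial-like cells stood at 5.74 CPM from 5 UMIs. The 3 blood endothelial-like clusters lay between 311 and 429 CPM, and the unnamed vessel clusters with haemoglobin RNA between 323 and 601 CPM. Schwann-like, keratinocyte-like, resident macrophage-like and fibroblast-like cells formed a lower group at 55.3, 41.8, 37.6 and 31.9 CPM, in which the intervals of neighbours overlapped. In keratinocyte-like cells the library values were 28.0 and 66.3 CPM. A thinned Kitl UMI was found in 49.1% of blood endothelial-like cells, 28.6% of mural-like cells (8 of 28, 13.2 to 48.7%) and 5.87% of fibroblast-like cells.

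Within phagocytes, Kitl followed an order of its own. Resident macrophage-like cells stood at 37.6 CPM (31.5 to 44.5), with 36.4 and 41.9 CPM in libraries 1 and 2, macrophage-like cells at 17.4 CPM, monocyte-like cells at 3.898 CPM and cDC2-like cells at 0.674 CPM. Their intervals did not overlap. Thinned shares were 7.13%, 4.01%, 0.867% and 0.195%. The endothelial cadherin gene Cdh5, a measure of endothelial RNA in these cells, stood at 3.62, 3.07, 2.75 and 1.35 CPM in the same order. The summed level of the 10 endothelial markers was lowest in resident macrophage-like cells, at 25.6 CPM with 8 of the 10 detected, and lay between 53.6 and 122 CPM in the other named phagocytes. The part of endothelial RNA in the Kitl levels of phagocytes was not tested. The genes most like Kitl over the clusters were Sparcl1 (r 0.93), Rapgef3 (0.91) and Tspan7 (0.91).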

How the data were processed

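The authors sequenced 3' droplet libraries and deposited their unnormalized UMI counts, whole numbers per gene and cell, as 1 matrix made with Cell Ranger 4.0.0 on mm10 per the submitters' processing notes. The annotation and any earlier filter on cells were not given in the sources used here. A suffix on the barcodes marks 2 libraries and no source ties it to an age, so the planned grouping by age was not used and the matrix counts as 1 sample.

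Cells were filtered as stated above. Cells, scaled to 10000 UMIs and logged, were clustered by the Leiden method at resolution 1 on 15 neighbours in 30 principal components of 2000 variable genes, without the members and 46 pathway genes (Python 3.11.15, scanpy 1.11.5, leidenalg 0.10.2). Of 21 clusters, 5 that were unnamed or mixed were clustered again, which gave 32. Names rest on 22 marker lists, by the mean log2 excess (after adding 10 CPM) over the median cluster, at least 3 raised markers and a lead of 0.5. A monocyte or macrophage subtype list could lie up to 1 below the general macrophage list and still give the name. Clusters that held another compartment's list at 3 or more stayed unnamed. The naming rule and the second round were set after the clusters had been seen, so names end in like, and a difference from the study may come from the rebuilt names. The members and lists were chosen with earlier results of these data known. Scrublet called 6 cells, too few to have worked, so doublets were left untreated.

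UMIs were summed per class. Intervals are exact Poisson intervals for levels and exact Clopper-Pearson intervals for shares, at 95%. A count of 0 has an upper limit of 3 counts. These bounds hold counting error and no spread between mice, and no p-value was computed. Ratios are log2 of summed levels, and genes with under 20 UMIs in the classes compared were left out. Shares are of cells thinned to 2000 UMIs, without shallower cells. These were 69 phagocytes and 44 fibroblast-like, 25 endothelial, 8 mural-like and 2 keratinocyte-like cells. The ratio intervals and the naming were run on counts simulated from the gene totals and cluster profiles of these data, and thinning on part of the cells. The simulated counts held no doublets and no spread between cells beyond counting. They therefore cannot check the names or intervals against either. Genes most like a member had the highest Pearson's r of log2(CPM + 10) over clusters, among genes with at least 200 UMIs. Named genes are the members, pathway genes at 50 CPM or more in some class, 3 like genes per member and the gate's genes. Those used to describe clusters, Cdh5, Pdgfrb, C1qa, Lyz2, Cd207 and Rgs5 and the list genes under 50 CPM were added after values were seen. The values of 1 listed gene are not reported here. Positions are from GENCODE vM21 (GRCm38), in which 32158 of 32285 gene identifiers were found, and promoter windows from RefSeq.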

Additional observations from a re-analysis of the deposited data

How the results depend on the processing

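Each log2 ratio of phagocytes over stromal and epithelial cells was recomputed under 14 other settings and 2 added after the data were seen, which gave 160 values. None changed sign, 95 stayed within the counting interval of the reported value and 65 moved out of it, and the causes of the moves were not tested. Values under 1 occurred for Csf2rb2 and Kit only.

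With at most 5% mitochondrial UMIs, which left 31 endothelial and 0 mural-like cells, the ratios were 3.55 for Csf1r, 3.56 for Csf2ra, 3.82 for Csf2rb, 3.61 for Csf2rb2, 4.62 for Csf3r, 2.31 for Flt3, 0.50 for Kit and -1.66 for Kitl. With the cell filter set to 200 genes, 500 UMIs and 20% mitochondrial UMIs they were -6.03 for Csf1, 3.35 for Csf2rb, 0.47 for Kit and -2.14 for Kitl. At resolution 0.5 they were 4.16 for Csf2rb, 1.92 for Csf2rb2 and -2.07 for Kitl, and at resolution 2 they were 1.54 for Csf2rb2 and 0.96 for Kit. With 1000 variable genes they were 3.22 for Csf2rb, 0.88 for Kit and -2.86 for Kitl, and with 4000 they were 3.28 for Csf2rb and -2.73 for Kitl.

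In library 1 alone they were 4.10 for Csf1r, -5.94 for Csf1, 4.61 for Csf2ra, 1.44 for Csf2rb2 and -2.24 for Kitl. In library 2 alone they were 5.07 for Csf1r, -6.95 for Csf1, 5.67 for Csf2ra, 3.67 for Csf2rb, 7.71 for Flt3 and -2.82 for Kitl. As means over cells they were 5.10 for Csf1r, 2.87 for Csf2rb, 0.79 for Csf2rb2 and 0.41 for Kit. With the stromal and epithelial classes weighted equally they were 5.52 for Csf1r, -5.19 for Csf1, 5.34 for Csf2ra, 2.85 for Csf2rb, 0.58 for Csf2rb2 and -3.56 for Kitl. In cells thinned to 2000 UMIs they were 5.46 for Csf1r, -6.23 for Csf1, 2.66 for Csf2rb, 0.83 for Csf2rb2 and -2.29 for Kitl.

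With each cell named on its own, which put 445 cells among fibroblasts, they were 3.75 for Csf1r, -1.87 for Csf1, -3.75 for Il34, 4.03 for Csf2ra, 1.97 for Csf2rb, 0.22 for Csf2rb2, 4.51 for Csf3r, 4.60 for Flt3, 0.30 for Kit and -3.31 for Kitl. Without the Col1a1-led fibroblast-like cluster they were 5.65 for Csf1r, 3.25 for Csf2rb and 1.04 for Csf2rb2. With the haemoglobin-bearing vessel clusters counted as endothelial they were 2.89 for Csf2rb, 0.88 for Csf2rb2, 0.84 for Kit and -3.27 for Kitl. Leaving out cells with a Scrublet score of 0.2 or more, or keeping the members among the variable genes, moved none of the 10 ratios out of its interval.

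Of the levels in the 5 compartments, 195 of 740 alternative values moved out of their counting interval, and of the shares of cells with a UMI, 96 of 180 did with another thinning depth or none. The depth limits what can be said of Il34 and Kit, with 319 and 308 UMIs, and of the small classes, such as the 29 mast-like and 36 mural-like cells. No paired analysis was possible because each age has 1 library and the suffixes are tied to no age.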
